A study of Homo sapiens with 18 samples.

Results

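The common response to 8 h of complex I inhibition was measured by setting 6 libraries of IACS-010759 (IACS) treated cells against 6 libraries of DMSO-treated cells, pooled over the acute myeloid leukemia (AML) lines MV4-11 and THP1 with the cell line as a covariate. These were 12 of the 18 libraries of the series, and the other 6, treated for 24 h, were not used here. Each line gave 3 libraries treated with the vehicle DMSO and 3 exposed for 8 h to IACS at 50 nM. Both lines carry a rearranged KMT2A gene (KMT2A-r), MV4-11 with an internal tandem duplication in FLT3 and THP1 with a mutation in NRAS, so every group shares the KMT2A rearrangement. An effect common to this pair of established lines describes the pair and not KMT2A-r AML at large. The labels do not give the hour at which the DMSO cells were collected, so the time in culture and the drug cannot be told apart. The replicates are described as independent, without naming separate cultures, and the p-values measure the spread between these samples.

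IACS blocks complex I (CI), the entry point of the mitochondrial electron transport chain, where NADH is oxidized. When respiration or amino acid supply is disturbed, kinases that phosphorylate the translation factor eIF2 slow protein synthesis in general and favor translation of ATF4, a transcription factor that switches on amino acid synthesis, tRNA charging and regulators of cell fate; this is the integrated stress response (ISR). A separate sensor, MondoA, follows glucose phosphates and drives the arrestin-like genes TXNIP and ARRDC4, which restrain glucose uptake. Myeloid leukemia cells divide quickly, and their levels of replication and mitosis genes follow the share of cells in the matching cycle phases.

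Expression was deposited as TPM, the length-corrected share of each transcript in its library, of which 5 abundant noncoding RNAs took 39.6 to 60.0% of each library. Levels were therefore rescaled so that the median gene had the same level in every library (rescaled TPM), and changes are given as log2 fold changes on the log2(rescaled TPM + 1) scale, which understates the change of low genes. The low TPM values point to roughly 22800000 to 29200000 counted reads per library. Of 12 myeloid and KMT2A-r markers, 12 averaged at least 1 TPM in MV4-11 and 11 in THP1, led by lysozyme (LYZ), and their summed level overlapped between treatments in each line (5480 to 7000 TPM with DMSO and 4950 to 8020 with IACS in MV4-11, 1500 to 1630 and 1370 to 1540 in THP1). The red cell and platelet genes HBB and PF4 were listed at 0 in all 12 libraries, but other markers of these lineages were expressed. Of 7 red cell and platelet markers, EPOR and ITGA2B averaged at least 1 TPM in MV4-11, and EPOR in THP1. The 7 summed to 15.8 to 21.6 TPM in MV4-11 and 4.95 to 6.45 in THP1. Of 7 lymphoid markers, 2 averaged at least 1 TPM in each line, led by NKG7. These summed to 56.7 to 82.6 TPM in MV4-11 and 5.49 to 14.6 in THP1. None of the 11 myeloid markers, 1 lymphoid marker and 1 erythroid marker expressed highly enough to be tested was called. Over all genes tested, 0.256% were called higher and 0.44% lower.

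At 8 h, 32 of 12513 genes tested were higher and 55 were lower at an adjusted p under 0.05 (limma, Benjamini-Hochberg), which is 0.256% and 0.44% of the genes. Only 9 of the higher and 4 of the lower genes also passed a 1.5-fold threshold (0.0719% and 0.032%). At an unadjusted p under 0.05 there were 835 and 957 genes. In 30 of the 32 higher genes all 3 IACS libraries lay above all 3 DMSO libraries in each line, and in 50 of the 55 lower genes they lay below. Over all genes tested this complete separation in both lines was seen for 145 genes upward (1.16%) and 204 downward (1.63%). The calls depended on single libraries and on scaling. Leaving out 1 library at a time gave 4 to 36 higher and 7 to 56 lower genes, with the fewest when MV4-11 DMSO replicate 1 was left out, and both counts stayed within 1.5 times only without THP1 DMSO replicate 3 or THP1 IACS replicate 1. Without rescaling, the TPM as deposited gave 3 higher and 2 lower genes, or 60.0% higher against 36.8% after rescaling. Called whichever library was left out were 11 genes, namely CHAC1, ALAS1, CARS and JDP2 among the higher and ARRDC4, MT-ATP8, SQLE, CDC6, SKP2, SLC39A4 and AC145207.5 among the lower.

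**Figure D1:**
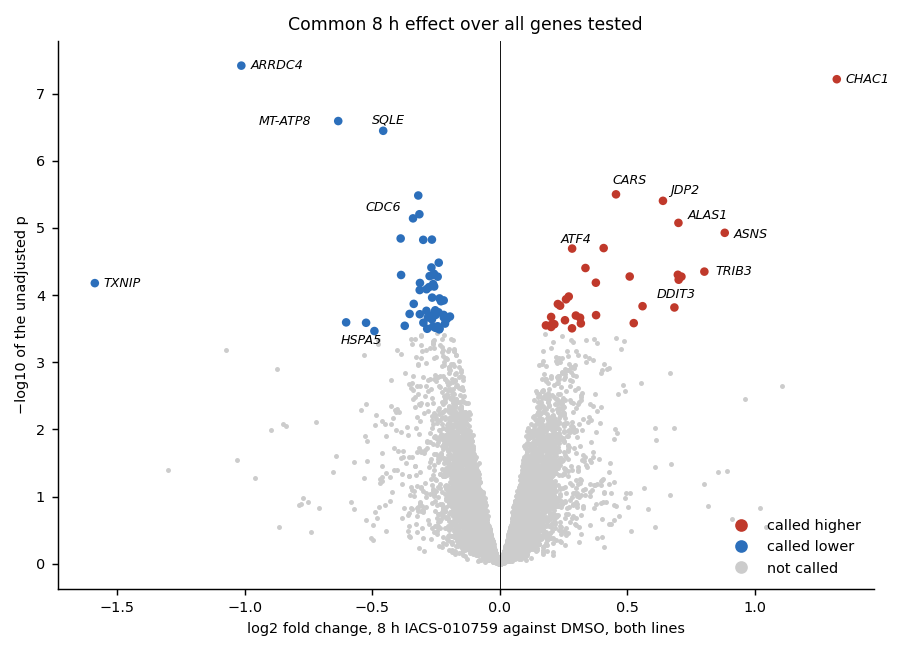
Log2 fold change of each of the 12513 genes tested (horizontal axis, 8 h IACS against DMSO with the cell line as covariate) against the negative log10 of its unadjusted p (vertical axis). The 32 genes called higher and 55 called lower are colored, with CHAC1 at 1.32 and TXNIP at -1.59 as the ends.

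CHAC1, ASNS and TRIB3, the genes with the largest rises among those called, are known targets of ATF4. Of 34 genes on the list of ATF4 and its targets, 26 were expressed highly enough to be tested, 25 of them had a log2 fold change above 0, 8 rose and none fell, beside 0.256% of all genes that were called higher. The median log2 fold change of the 26 was 0.33, against 0.0067 over all genes tested. This list, like the others here, was chosen with earlier results of these data known. Its counts are therefore not independent evidence.

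CHAC1, a glutathione-degrading enzyme and a classic ATF4 target at chr15:40952962-40956512, rose most. Its rescaled TPM was 0.884, 1.06 and 0.925 in the MV4-11 DMSO libraries and 5.11, 3.74 and 3.82 after IACS. In THP1 it was 0.539, 0.575 and 0.953 with DMSO and 2.8, 4.13 and 2.18 with IACS. No IACS library overlapped a DMSO library in either line, and the mean was 4.41 times the DMSO mean in MV4-11 and 4.41 times in THP1. The common log2 fold change was 1.32 (SE 0.12, limma adjusted p = 0.00038). CHAC1 averaged under 1 TPM with DMSO in both lines (0.982 and 0.68 TPM as deposited), so it passed the filter of 1 TPM through the IACS libraries only and had to differ to be tested. It was a low transcript, resting on about 11 to 123 reads per library.

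ASNS, the asparagine synthetase at chr7:97851677-97872542, stood at 4.74, 5.8 and 4.49 rescaled TPM in MV4-11 with DMSO and at 11.7, 9.81 and 7.9 with IACS. In THP1 it went from 1.66, 1.0 and 2.52 to 3.7, 4.76 and 3.77, again without overlap (log2 fold change 0.88, SE 0.13, limma adjusted p = 0.0134). TRIB3, a pseudokinase that feeds back on ATF4, was at 5.8, 6.85 and 5.22 with DMSO and at 13.9, 10 and 7.79 with IACS in MV4-11. In THP1 the DMSO libraries held 15.6, 17.0 and 25.8 and the IACS libraries 38.2, 35.7 and 35.2. Both lines kept the treatments apart, although TRIB3 levels differed between the lines, and the common log2 fold change was 0.80 (SE 0.13, limma adjusted p = 0.0237).

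DDIT3, the stress transcription factor CHOP, was at 13.9, 14.4 and 13.0 rescaled TPM in MV4-11 with DMSO and at 19.0, 18.4 and 24.8 with IACS. In THP1 it was at 28.6, 29.6 and 29.8 with DMSO and at 61.7, 64.7 and 38.7 with IACS, where replicate 3 was nearer to the controls than the others (log2 fold change 0.70, SE 0.12, limma adjusted p = 0.0237). DDIT3 shares 355 exon bases with MARS on the opposite strand, and the library kit does not mark strand, so reads from that stretch cannot be assigned to either gene with certainty. SESN2, a stress inhibitor of the growth kinase complex mTORC1, rose from 4.69, 5.03 and 4.66 to 8.46, 6.94 and 6.92 in MV4-11. Its THP1 libraries rose from 2.9, 4.12 and 5.83 to 8.85, 9.18 and 7.23 (log2 fold change 0.70, SE 0.12, limma adjusted p = 0.0254). SESN2 was called in 4 of the 12 fits that left out 1 library, as was TRIB3.

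ATF4 mRNA itself, from chr22:39519695-39522683, was already abundant with DMSO. It changed less than CHAC1, ASNS, TRIB3, DDIT3 and SESN2, but more than the list median of 0.33. MV4-11 held 169, 182 and 172 rescaled TPM with DMSO and 224, 217 and 206 with IACS, and THP1 held 138, 135 and 136 with DMSO and 218, 197 and 173 with IACS. The treatments did not overlap, and the log2 fold change was 0.41 (SE 0.063, limma adjusted p = 0.0158). JDP2, an AP-1 family repressor, rose by 0.64 on the log2 scale (SE 0.084, adjusted p = 0.00704), from 1.3 to 1.59 up to 2.17 to 2.51 rescaled TPM in MV4-11 and from 1.62 to 2.3 up to 3.85 to 4.19 in THP1. VEGFA, the endothelial growth factor that also stands among hypoxia targets, rose by 0.53 (SE 0.11, adjusted p = 0.0449), but its THP1 libraries overlapped, with 2.12, 2.19 and 3.79 for DMSO and 3.52, 5.01 and 4.58 for IACS. It was called in 2 of the 12 fits that left out 1 library.

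Within the IACS groups, replicate 3 was the lowest for ASNS, TRIB3, SESN2 and ATF4 in MV4-11 and for CHAC1, TRIB3, DDIT3, SESN2 and ATF4 in THP1. Other targets did not pass the test. GRB10, an adaptor of insulin signaling, had a log2 fold change of 0.49 (adjusted p = 0.0567), DDIT4, another mTORC1 inhibitor, 0.61 (adjusted p = 0.188), and PPP1R15A, which recruits the eIF2 phosphatase, 0.34 (adjusted p = 0.0565). ALDH18A1, a proline synthesis enzyme, was the single tested member below 0, at -0.12 (adjusted p = 0.578).

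**Figure D2:**
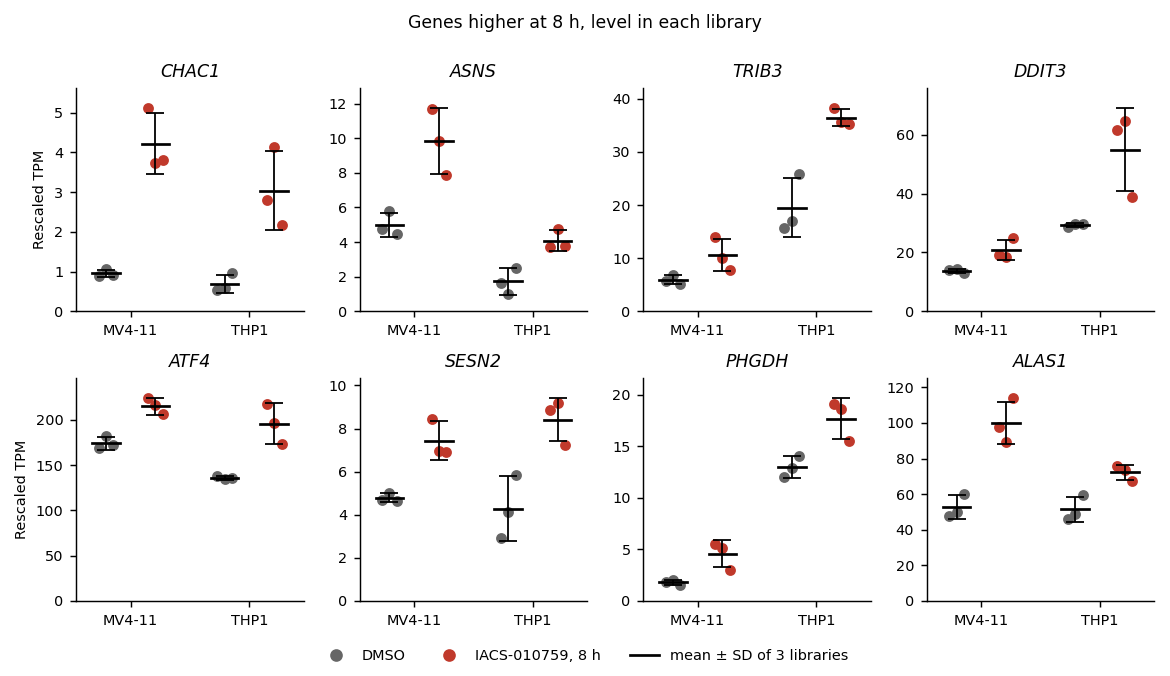
Rescaled TPM (vertical axes from 0) of 8 genes called higher in each of the 12 libraries, by cell line and treatment, with points for libraries and bars for the mean and SD of 3. In each gene and line all red IACS points lie above all grey DMSO points.

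The promoters of the called genes were searched for the C/EBP-ATF response element, TGATGNAA on either strand, to which ATF4 binds. RefSeq promoters (GRCh38.p14, 250 bases before to 50 after the start) were matched for 9035 of the genes tested, 27 of them called higher and 43 called lower. The letters were present in 138 of the 9035 (1.53%), in 4 of the 27 higher genes (14.8%) and in 0 of the 43 lower genes. The 4 were CHAC1, ASNS, CARS and MARS, shown here in the direction of transcription because they belong to the rises; capitals mark the match, which lies on the reverse strand in CHAC1, CARS and MARS.
CHAC1, chr15:40953221-40953314, plus strand: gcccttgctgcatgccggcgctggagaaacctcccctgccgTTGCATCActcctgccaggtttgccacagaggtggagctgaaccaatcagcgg
ASNS, chr7:97872424-97872521, minus strand: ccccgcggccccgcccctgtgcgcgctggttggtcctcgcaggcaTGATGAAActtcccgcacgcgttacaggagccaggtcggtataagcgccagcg
CARS, chr11:3057418-3057470, minus strand: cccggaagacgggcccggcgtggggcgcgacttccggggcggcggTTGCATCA
MARS, chr12:57488019-57488071, plus strand: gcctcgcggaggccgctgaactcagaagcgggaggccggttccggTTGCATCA
The match began 209 bases before the start in CHAC1 and 68 before it in ASNS, while in CARS and MARS it ran across the start site. Such a match describes the letters in the window and not binding.

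Genes of serine, folate and amino acid metabolism rose in part. PHGDH, the first enzyme of serine synthesis, went from 1.82, 2.05 and 1.58 to 5.52, 5.15 and 3.03 rescaled TPM in MV4-11. In THP1, where it was higher throughout, it went from 12, 12.9 and 14.1 to 19.1, 18.6 and 15.5 (log2 fold change 0.69, SE 0.13, limma adjusted p = 0.0398). The treatments were apart in both lines. MTHFD2 and ALDH1L2, mitochondrial folate enzymes, rose by 0.34 (SE 0.055, adjusted p = 0.0237) and 0.38 (SE 0.065, adjusted p = 0.0259). These were the 3 called among 16 tested members of the serine and one-carbon list, beside 0.256% of all genes called higher. The list median was 0.074 with 11 members above 0, beside 52.8% of all genes. PHGDH was called in 3, ALDH1L2 in 4 and MTHFD2 in 6 of the 12 fits that left out 1 library. PSAT1, the next serine enzyme, was at 0.46 (adjusted p = 0.0565) and TYMS, which makes thymidylate for DNA, was lowest at -0.26 (adjusted p = 0.254).

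Among 21 cytosolic tRNA synthetases, which charge tRNAs with amino acids, 2 rose and none fell, beside 0.256% of all genes called higher. Their median was 0.063, and 15 were above 0, beside 52.8% of all genes. CARS, for cysteine, went from 9.16, 8.23 and 8.33 to 13.5, 13.3 and 11.9 in MV4-11 and from 7.06, 7.01 and 7.18 to 9.47, 10.6 and 8.49 in THP1. The treatments did not overlap (log2 fold change 0.46, SE 0.059, limma adjusted p = 0.00685). MARS, for methionine, rose by 0.23 (SE 0.043, adjusted p = 0.0378), and FARSA, a subunit of the phenylalanine enzyme, was lowest at -0.11 (adjusted p = 0.546). CARS was called in all 12 fits that left out 1 library but MARS in only 1, and MARS shares 355 exon bases with DDIT3. None of 14 tested amino acid transporters passed, the largest value being 0.67 for the cystine carrier SLC7A11 (SE 0.17, adjusted p = 0.0915). Its treatments were apart in MV4-11 and overlapped in THP1. At an unadjusted p under 0.05 there were 3 transporters, all above 0, beside 835 such genes among all 12513.

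The machinery above ATF4 stayed near 0 at the mRNA level. Of 15 eIF2 kinases, relay proteins and eIF2 subunits tested, the median was 0.013, with a range from -0.14 for EIF2S1 to 0.14 for OMA1. None passed in limma, beside 0.256% of all genes called higher and 0.44% called lower, so the lack of calls says little. At an unadjusted p under 0.05 there were 3, beside 835 genes above and 957 below 0 among all 12513. The kinases EIF2AK1 (HRI), EIF2AK2 (PKR), EIF2AK3 (PERK) and EIF2AK4 (GCN2) were at -0.01, -0.07, 0.04 and 0.05, each with an adjusted p of at least 0.621. OMA1, the inner membrane protease, and DELE1, the messenger it cleaves in the path from mitochondria to HRI, were each at 0.14 (adjusted p = 0.192 and 0.169). These proteins are controlled by activity and cleavage, which RNA levels do not record.

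Rises outside these groups included ALAS1, the first enzyme of heme synthesis. It went from 47.8, 50.2 and 60.2 to 97.6, 89.3 and 114 rescaled TPM in MV4-11 and from 45.8, 49.0 and 59.4 to 75.7, 73.7 and 67.3 in THP1 (log2 fold change 0.70, SE 0.099, limma adjusted p = 0.0105). No other of the 15 tested genes of iron and heme passed, with the transferrin receptor TFRC lowest at -0.37 (adjusted p = 0.0905). RENBP, an enzyme of amino sugar metabolism, rose by 0.38 (SE 0.074, adjusted p = 0.042) and GAB2, a signaling adaptor, by 0.32 (SE 0.064, adjusted p = 0.0449). RENBP and GAB2 were each called in 1 of the 12 fits that left out 1 library. Chosen after their values were seen, TUBE1, a centriole tubulin, rose by 0.56 (SE 0.11, adjusted p = 0.0389) and P2RX7, an ATP-gated channel of myeloid cells, by 0.51 (SE 0.087, adjusted p = 0.0237), which in MV4-11 passed the filter through the IACS libraries only (0.774 TPM as deposited with DMSO).

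The largest falls were in the arrestin-like genes under MondoA. TXNIP, at chr1:145992435-145996579, fell from 98.8, 96.0 and 129 rescaled TPM to 68.5, 62.1 and 66.9 in MV4-11. In THP1 it fell from 171, 175 and 263 to 32.8, 29.5 and 43.6. The treatments were apart in both lines, the IACS mean being 0.61 of the DMSO mean in MV4-11 and 0.174 in THP1, and the common log2 fold change was -1.59 (SE 0.28, limma adjusted p = 0.0259). TXNIP was called in 5 of the 12 fits that left out 1 library, with values from -1.72 to -1.40.

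ARRDC4, at chr15:97960703-97973833, fell more evenly. It went from 6.29, 6.12 and 7.22 to 3.46, 3.18 and 3.65 rescaled TPM in MV4-11 and from 16.3, 14.6 and 17.0 to 6.56, 5.81 and 5.91 in THP1. The ranges did not overlap and the common log2 fold change was -1.01 (SE 0.089, limma adjusted p = 0.00038). The other 5 tested members of the list did not pass, with ARRDC3, another arrestin-like gene, at 0.40 (adjusted p = 0.0862), and with MLXIP, which encodes MondoA, and its partner MLX at 0.02 and 0.03. The E-box CACGTG, which forms one side of the carbohydrate response element and reads the same on both strands, was present in 952 of 9035 promoters (10.5%), in 5 of 43 lower genes (11.6%) and in 1 of 27 higher genes (3.7%), a share among the lower genes close to that of all promoters. It is shown for ARRDC4, capitals marking the match 210 bases before the start.
ARRDC4, chr15:97960453-97960543, plus strand: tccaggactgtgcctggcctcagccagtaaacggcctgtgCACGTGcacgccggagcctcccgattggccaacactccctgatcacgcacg

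**Figure D3:**
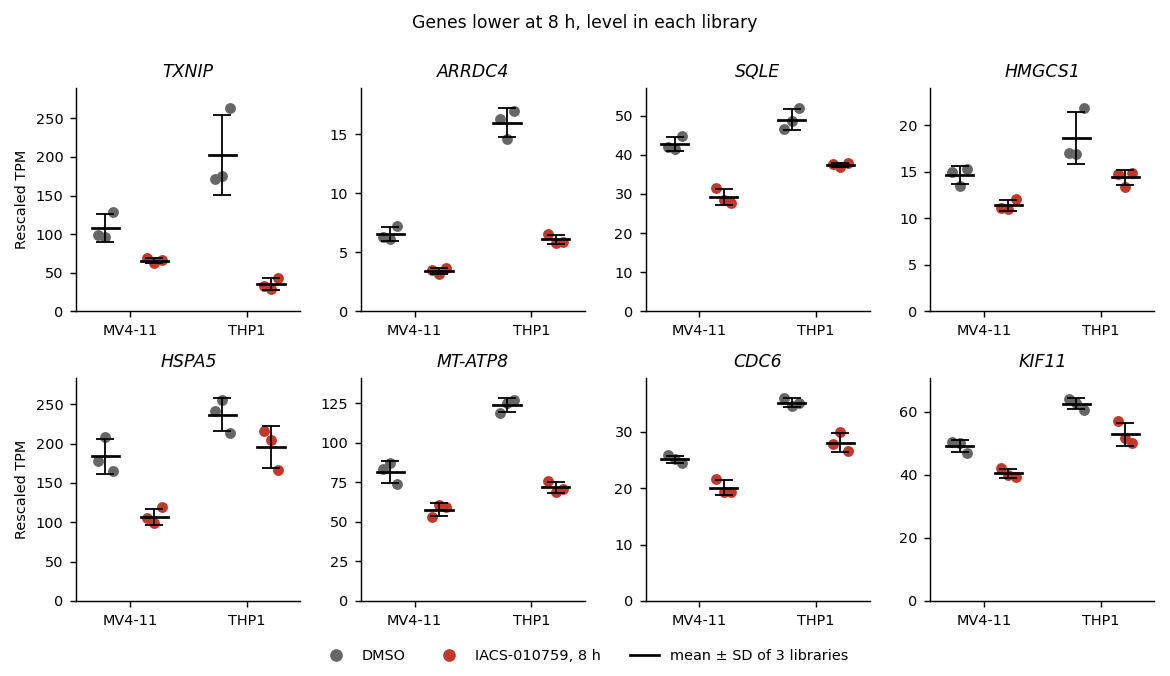
Rescaled TPM (vertical axes from 0) of 8 genes called lower in each of the 12 libraries, by cell line and treatment, with points for libraries and bars for the mean and SD of 3. Red IACS points lie below all grey DMSO points in each gene and line except HSPA5 in THP1, where IACS replicate 1 at 216 was above DMSO replicate 3 at 214.

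Cholesterol synthesis genes lay below 0 throughout. All 23 tested members of the list of SREBP2 targets had a log2 fold change below 0, 22 of them in each line taken alone, beside 47.2% of all genes below 0 and 25.4% below 0 in both lines. The median was -0.22 (-0.27 in MV4-11 and -0.19 in THP1), and 5 of the 23 fell, against 0.44% of all genes.

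SQLE, squalene epoxidase, was at 42.1, 41.5 and 44.9 rescaled TPM in MV4-11 with DMSO and at 31.5, 28.5 and 27.8 with IACS, and at 46.5, 48.7 and 51.9 against 37.7, 36.8 and 37.8 in THP1. The ranges were well apart (log2 fold change -0.46, SE 0.048, limma adjusted p = 0.00112). HMGCS1, which makes HMG-CoA, went from 15, 13.5 and 15.3 to 11.1, 11.0 and 12.1 in MV4-11 and from 17.0, 16.9 and 21.8 to 14.8, 13.4 and 14.9 in THP1 (log2 fold change -0.34, SE 0.063, limma adjusted p = 0.0378). IDI1, an isoprenoid isomerase, fell by 0.39 on the log2 scale (SE 0.065, adjusted p = 0.0237), CYP51A1, the lanosterol demethylase, by 0.37 (SE 0.076, adjusted p = 0.0458), and STARD4, a sterol carrier, by 0.30 (SE 0.06, adjusted p = 0.0449). In all 5 the treatments were apart in each line, beside 1.63% of all genes. The same held for 50 of the 55 lower genes, which were called on these same values, so it is not particular to sterol genes. SQLE was called in all 12 fits that left out 1 library, IDI1 in 5, HMGCS1 in 3, CYP51A1 in 1 and STARD4 in 0, so the count of 5 depends on single libraries. ACAT2, which joins acetyl groups at the head of the pathway and was not on the list, fell as well (log2 fold change -0.27, SE 0.053, adjusted p = 0.0428); it was named after its value was seen, and 17.2% of its exon bases overlap TCP1 on the opposite strand.

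HSD17B7 had the smallest change of the list, at -0.06 (adjusted p = 0.788). Fatty acid synthesis genes under SREBP1 had a median of -0.18 with 8 of 11 below 0, beside 47.2% of all genes, and no call. They ran from -0.46 for the desaturase SCD (adjusted p = 0.354) to 0.07 for ACSL1 (adjusted p = 0.671). The sterol regulatory element in the form TCACNCCAC, on either strand, was found in 94 of 9035 promoters (1.04%) and in 0 of the 70 called ones.

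Chaperones of the endoplasmic reticulum (ER) leaned the same way. HSPA5 (BiP), the main ER chaperone, was at 178, 208 and 165 rescaled TPM in MV4-11 with DMSO and at 105, 98.7 and 119 with IACS. In THP1 it was at 241, 256 and 214 with DMSO and at 216, 205 and 166 with IACS, so that the treatments were apart in MV4-11 and overlapped in THP1. The common log2 fold change was -0.52 (SE 0.11, limma adjusted p = 0.0449), and it was called in 2 of the 12 fits without 1 library. HSPA5 was the 1 called of 25 tested ER folding and degradation genes, beside 0.44% of all genes called lower. Their median was -0.18 with 20 below 0, beside 47.2% of all genes. MANF, a secreted ER stress protein, was at -0.48 (adjusted p = 0.0565), and HERPUD1, which takes part in ER degradation and is also on the ATF4 list, was highest at 0.09 (adjusted p = 0.581). Named after their values were seen, the signal peptidase subunits SPCS2 and SPCS3 fell by 0.27 (SE 0.046) and 0.24 (SE 0.039), each with an adjusted p of 0.0237. The ER stress response element, the letters CCAAT and CCACG with 9 bases between them on either strand, was in 14 of 9035 promoters (0.155%) and, among the called genes, in HSPA5, where capitals mark the copy that begins 66 bases before the start.
HSPA5, chr9:125241346-125241454, minus strand: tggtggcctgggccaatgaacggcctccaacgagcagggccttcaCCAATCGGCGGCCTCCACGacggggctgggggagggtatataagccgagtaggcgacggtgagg

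Genes of DNA replication and mitosis lay mostly below 0, further in MV4-11 than in THP1, and few passed the test. Of 26 replication genes 25 were below 0, beside 47.2% of all genes, with a median of -0.18 (-0.25 in MV4-11 and -0.10 in THP1), and 4 fell, beside 0.44% of all genes. Of 23 mitosis genes tested all were below 0, with a median of -0.19 (-0.29 and -0.11), and 1 fell. A lower median in MV4-11 than in THP1 was not particular to these genes. Glycolysis genes (-0.116 and 0.076) and ER folding and degradation genes (-0.227 and -0.082) had it as well. Genes around mTORC1 (0.065 and 0.015) did not. When each of the 12 libraries was left out in turn, CDC6 was called every time, KIF11 in 4 fits, and PCNA, GINS4 and CCNE2 in 1 fit each. In these bulk libraries, fewer cells in a cycle phase and less RNA per cell cannot be told apart.

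CDC6, which loads the replicative helicase, was at 25.8, 25.1 and 24.5 rescaled TPM in MV4-11 with DMSO and at 21.6, 19.3 and 19.3 with IACS. In THP1 it went from 36.0, 34.5 and 35.1 to 27.8, 30 and 26.6. Both shifts were of a similar size and without overlap (log2 fold change -0.31, SE 0.043, limma adjusted p = 0.00976). PCNA, the polymerase clamp, fell by 0.28 on the log2 scale (SE 0.055, adjusted p = 0.042), GINS4, a helicase subunit, by 0.24 (SE 0.05, adjusted p = 0.0458), and CCNE2, a cyclin of S phase entry, by 0.24 (SE 0.049, adjusted p = 0.0471). CCNE2 overlapped between treatments in MV4-11, and 37.0% of its exon bases lie opposite INTS8. KIF11, the spindle kinesin, went from 50.3, 50.1 and 46.8 to 42.1, 39.9 and 39.3 in MV4-11 and from 64.1, 62.8 and 60.5 to 56.9, 51.5 and 49.9 in THP1 (log2 fold change -0.26, SE 0.043, limma adjusted p = 0.0237). The highest value of the replication list was 0.07 for the licensing factor CDT1 (adjusted p = 0.696), and the mitosis list ran from -0.32 for MKI67 (adjusted p = 0.0808) to -0.08 for CCNB2 (adjusted p = 0.593).

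CENPA, the histone variant of centromeres, fell most among cycle genes, from 32.8, 32.0 and 32.2 to 23.0, 21.2 and 22.2 rescaled TPM in MV4-11 and from 24.5, 23.9 and 21.9 to 20.9, 19.2 and 18.5 in THP1. It was apart in both lines (log2 fold change -0.39, SE 0.058, limma adjusted p = 0.0134). Further lower genes of the cell cycle, named after their values were seen, were the ubiquitin ligase subunit SKP2 (log2 fold change -0.32, SE 0.041, adjusted p = 0.00685), the phosphatase CDC25A, the licensing inhibitor GMNN, FBXO5, ANLN, ASPM, EXO1 and TICRR.

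The E2F motif in the form TTTNGCGC, on either strand, was present in 302 of 9035 promoters (3.34%), in 6 of 43 lower genes (14%) and in 0 of 27 higher genes. The 6 were CDC6, CDC25A, EXO1, ZNF367, DDX46 and GTF2A1. The core of the cell cycle homology region, TTTGAA on either strand, which is bound by the DREAM and MuvB complexes, was in 879 promoters (9.73%), in 7 of 43 lower genes (16.3%) and in 1 of 27 higher genes (3.7%). It is shown for the mitotic genes CENPA, 18 bases before the start, and KIF11, 28 bases before it on the reverse strand, with the match in capitals.
CENPA, chr2:26785993-26786055, plus strand: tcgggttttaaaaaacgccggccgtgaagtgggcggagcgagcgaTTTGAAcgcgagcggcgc
KIF11, chr10:92593057-92593129, plus strand: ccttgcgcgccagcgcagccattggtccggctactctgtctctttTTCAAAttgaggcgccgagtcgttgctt

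**Figure D4:**
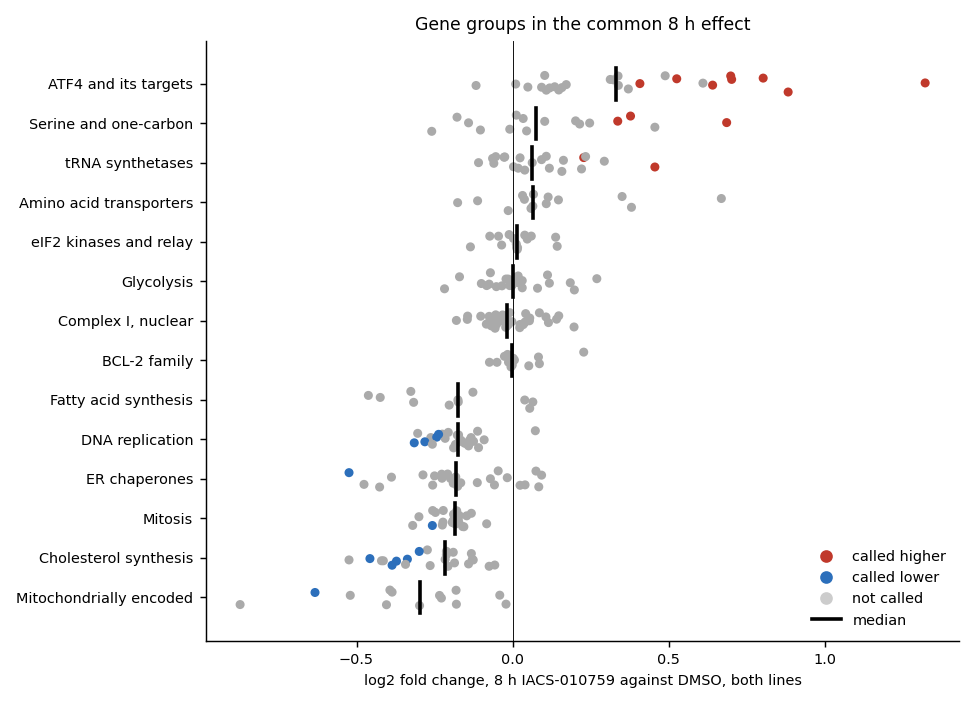
Log2 fold change (horizontal axis) of each tested member of 14 gene lists, with a black bar at the list median and color for called genes. ATF4 and its targets lie to the right with 8 called higher, and cholesterol synthesis (5 called lower), replication (4) and mitosis (1) lie to the left, while glycolysis, nuclear CI and BCL-2 family genes center near 0.

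Transcripts of the mitochondrial genome, which encodes CI subunits and parts of the other complexes, were below 0 in all 13 cases, beside 47.2% of all genes. Their median was -0.30, and 11 of 13 were below 0 in both lines, beside 25.4% of all genes. MT-ATP8, a small subunit of ATP synthase, was the 1 that fell, beside 0.44% of all genes. It was at 83.6, 87.4 and 74.1 rescaled TPM in MV4-11 with DMSO and at 53.1, 60.7 and 59.5 with IACS, and at 119, 125 and 127 against 75.7, 68.8 and 71.0 in THP1 (log2 fold change -0.63, SE 0.065, limma adjusted p = 0.00106). The treatments were clearly apart, but the gene shares 46 exon bases (22.2%) with MT-ATP6 and rests on about 129 to 264 reads per library. MT-ATP6 was at -0.39 (adjusted p = 0.193). MT-ND6, a CI subunit from the other strand, was lowest at -0.87 (SE 0.21, adjusted p = 0.0844) with overlapping MV4-11 libraries, and MT-ND4 was highest at -0.02 (adjusted p = 0.956). The mitochondrial share of TPM as deposited overlapped between treatments in MV4-11 (1.36 to 2.06% with DMSO and 1.16 to 2.09% with IACS). It was lower with IACS in every THP1 library (1.76 to 1.99% against 1.32 to 1.502%). This share also depends on the abundant noncoding RNAs, which took 46.3 to 55.84% with DMSO and 48.11 to 60.03% with IACS in THP1. The separation was not tested without them.

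None of the 37 tested nuclear subunits of CI, the inhibited complex, passed in limma, at a median of -0.019, with NDUFS6 lowest at -0.18 and NDUFS7 highest at 0.20, and 2 had an unadjusted p under 0.05 in each direction. None of 25 glycolysis genes passed (1 above and 2 below 0 at an unadjusted p under 0.05), at a median of 0.0020, from -0.22 for LDHA, which makes lactate (adjusted p = 0.129), to 0.27 for the regulator PFKFB2 (adjusted p = 0.0719). None of 25 TCA cycle genes passed either, at a median of 0.018, with PCK2, the mitochondrial PEP carboxykinase, at 0.49 (adjusted p = 0.118). Of 17 mitochondrial chaperones and proteases none passed, at a median of -0.041. In the BCL-2 family, which sets the threshold for apoptosis, none of 13 passed, at a median of -0.001, and 1 had an unadjusted p under 0.05. MCL1 was at -0.07 (SE 0.041, adjusted p = 0.444) and the BH3-only gene BBC3 was highest at 0.23 (adjusted p = 0.232). Over all genes tested, 0.256% were called higher and 0.44% lower, so lists of this size would hold few or no calls in any case. At an unadjusted p under 0.05 there were 835 genes above and 957 below 0 among all 12513. A miss at this depth and replicate number does not show that these genes were the same in both treatments.

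The remaining lists held few or no calls, beside 0.256% of all genes called higher and 0.44% called lower. KLF10, a growth factor responsive repressor, fell by 0.49 on the log2 scale (SE 0.10, adjusted p = 0.0493) as the 1 call among 20 immediate early genes. It was called in 1 of the 12 fits without 1 library. SESN2 was the 1 call among 14 genes around mTORC1 and VEGFA the 1 among 14 hypoxia targets outside glycolysis, so both are counted under ATF4 targets as well. No call was made among 17 genes of the NRF2 and glutathione list, 24 ribosome biogenesis factors, 17 autophagy and lysosome genes, 10 monocyte differentiation genes or 9 interferon and NF-kB genes, with list medians between -0.073 and 0.074. Of the ribosome biogenesis factors 21 were below 0, beside 47.2% of all genes. Above 0 were 15 of the autophagy, 12 of the NRF2, 7 of the interferon and 5 of the monocyte genes, beside 52.8% of all genes. UTP14C, a ribosome biogenesis factor, was at 1.11 (SE 0.29) without passing (adjusted p = 0.108). This value rested mostly on MV4-11, at 1.91 there and 0.31 in THP1, where the treatments overlapped. Its DMSO mean in MV4-11 was 0.158 rescaled TPM, so in that line it passed the filter through the IACS libraries only. None of the 5 abundant noncoding RNAs was called. Of 28 tested transcripts that the study took from this sequencing into a CRISPR library, 11 rose and 3 fell, but they were picked on these same samples and are not independent evidence.

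The lines were compared in the same model. The called genes were chosen on the effect pooled over the lines, so that their signs in each line are no separate evidence. Across the 12513 genes the log2 fold changes of MV4-11 and THP1, which share no library, correlated weakly (Pearson r = 0.14, Spearman rho = 0.14, over genes, which are not independent replicates). The interaction of line and treatment passed for 0 genes in limma (1 with voom), with 976 at an unadjusted p under 0.05. TXNIP came nearest, at a log2 fold change of -0.69 in MV4-11 and -2.48 in THP1 (limma interaction, adjusted p = 0.1), and it passed under some other settings. Among the largest changes ARRDC4 (-0.77 and -1.26) and CENPA (-0.53 and -0.25) followed, each with an interaction adjusted p of 0.634 in limma.

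**Figure D5:**
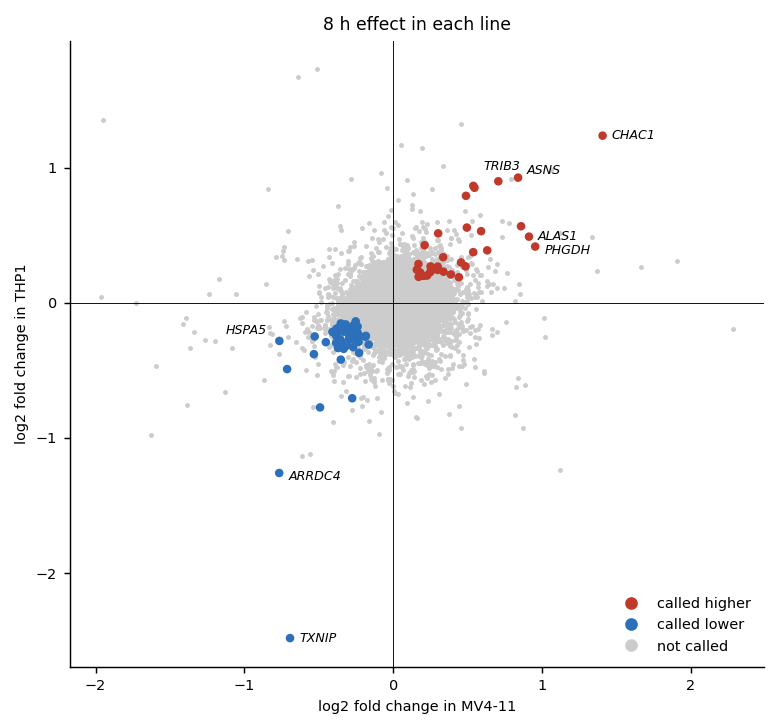
Log2 fold change at 8 h in MV4-11 (horizontal axis) against THP1 (vertical axis) for the 12513 genes tested, with called genes in color. Called genes lie in the upper right and lower left, TXNIP at -0.69 and -2.48, and the other genes form a cloud around 0.

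The called genes differed in composition from the rest. The median GC content of the longest transcript was 42.2% for the lower genes, 50.9% for the higher genes and 47.9% over all tested, among the 89.0% of tested genes with a gene model. The median log2 fold change ran from -0.013 in the fifth of genes with the lowest GC content to 0.025 in the fifth with the highest. A correction for GC content in each library, chosen after the data were seen, gave 81 higher and 111 lower genes and kept 30 of the 32 and 52 of the 55. Among transcripts named by clone, BX649601.1 rose by 0.71, Z93241.1 fell by 0.60 and AC145207.5 fell by 0.34 on the log2 scale. BX649601.1 was named after its value was seen, and in both lines it passed the filter of 1 TPM through the IACS libraries only. With CHAC1 and P2RX7 it was 1 of 3 such genes among the 32 higher, and there were 0 among the 55 lower.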

How the data were processed

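RNA was sequenced from both AML lines after DMSO or IACS (50 nM). Per the study's methods, reads were trimmed, aligned to GRCh38 and quantified with CLC Genomics Workbench 20. The authors deposited TPM for 45372 gene symbols in 18 libraries. TPM keeps no depth, and reads per library were approximated by dividing low values by the step of 1 read, given exon lengths from GENCODE 44. About 73.8 to 74.8% of the low values came out whole within 0.02.

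Genes averaging 1 TPM or more in each line were kept (12513). TPM was rescaled by the median of ratios, and log2(value + 1) was fitted in limma 3.58.1 (R 4.3.3) with a variance trend, cell line and treatment. A gene was called at a Benjamini-Hochberg adjusted p under 0.05 over all genes tested. The study used Kruskal-Wallis and Dunn tests between replicates of its experimental groups. A Kruskal-Wallis test pooled over the lines was run here as an alternative. This pooled form ignores the line and is not the study's test. The lists use current symbols, 22 of which matched through older symbols. The members and lists were chosen with earlier results of these data known. Text names the 12 largest rises and 12 largest falls among called genes averaging 5 rescaled TPM or more, called list members, the ends of each list described and fixed ISR, arrestin and MCL1 genes. Further genes, including those listed under a promoter motif, were chosen after their values were seen. Other fits changed scaling, pseudocount, filter, model, pairing and libraries. The GC correction and voom were added after the data were seen. Promoters came from RefSeq. A few genes of the lists are not reported here.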

Additional observations from a re-analysis of the deposited data

How the results depend on the processing

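The 34 called and named genes kept their direction under all alternatives run, but 367 of their 898 values were no longer called, 211 of them among the 408 values with 1 library left out, and 9 of the 34 were called in all 12 of those fits. The common 8 h effect (32 higher, 55 lower) gave 3 and 2 genes with TPM as deposited, 27 and 31 without the 5 noncoding RNAs, 8 and 18 with no filter on the mean, 22 and 36 in a fit of all 18 libraries, 26 and 33 without a variance trend, 60 and 90 with voom on recovered reads, and 81 and 111 with a GC correction. With a 1.5-fold threshold it gave 9 and 4, and at an unadjusted p 835 and 957. The Kruskal-Wallis test pooled over the lines gave 0 and 0, with 199 and 242 at an unadjusted p under 0.05. This pooled form does not separate the lines. A rank test on this few libraries has a smallest possible p that only very many genes together could carry past the adjustment. That would take more genes than had an unadjusted p under 0.05 here, so its 0 and 0 decide nothing. None of the 34 named genes was called under it, and these values are among the 367. The causes of the other differences were not tested. Other scaling genes, a pseudocount of 0.1, a minimum mean of 10 TPM and an interaction term kept both counts within 1.5 times. Without 1 library the counts ran from 4 to 36 and from 7 to 56. They fell by over 1.5 times without any 1 library except THP1 DMSO replicate 3 and THP1 IACS replicate 1, and, for the higher genes, MV4-11 IACS replicate 3.

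Replicate numbers were not taken to pair samples. Same-numbered DMSO and IACS libraries correlated at 0.0178 to 0.206 in MV4-11 and 0.0333 to 0.491 in THP1, all above 0. Differently numbered ones ran from -0.316 to 0.224 in MV4-11 and from -0.46 to 0.397 in THP1. The ranges overlap, so a pairing was neither established nor excluded. The replicate block gave 44 higher and 79 lower genes (23 and 42 shared with the fit without it, with the calls of 6 named genes lost, namely SESN2, RENBP, MARS, TXNIP, HSPA5 and PCNA), 9 and 18 with TPM as deposited, and 126 and 186 with the GC correction.

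The line difference passed for 1 gene with TPM as deposited, 1 without the noncoding RNAs, 1 at a minimum of 10 TPM and 1 with voom, TXNIP each time, for 5 genes with no filter, and for 0 to 1 genes without 1 library. The ATF4 target median was 0.15 at a minimum of 10 TPM, where fewer targets are tested, against 0.33. EIF2AK1, at -0.01, was at 0.005 with other scaling genes and at a minimum of 10 TPM, and at -0.043 to 0.004 without 1 library.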
